A study of Mus musculus with 2 samples.

Results

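The nuclear respiratory chain genes are the genes of the cell nucleus whose products build the respiratory complexes and ATP synthase of mitochondria. They were taken by name: symbols that begin with *Nduf*, *Uqcr*, *Cox4i*, *Cox5*, *Cox6*, *Cox7*, *Cox8* or *Atp5*, together with *Sdha*, *Sdhb*, *Sdhc* and *Sdhd*, without names that hold "-ps". Of the 28692 genes in the count matrices, 92 met this rule. They comprised 36 subunits and 7 assembly factors of complex I (NADH dehydrogenase), 4 subunits of complex II (succinate dehydrogenase), 8 of complex III (cytochrome c reductase), 20 of complex IV (cytochrome c oxidase), 16 of ATP synthase and *Atp5sl*, a gene named for its likeness to an ATP synthase subunit. Transcripts of the 13 protein genes of the mitochondrial genome, whose symbols begin with mt-, were measured in the same cells and are given beside them.

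The cells were hematopoietic stem and progenitor cells (HSPCs), Sca-1+ and cKit+, which were sorted from the TER-119-depleted livers of wild type CD1 embryos at E13.5 and seeded at 1000 per well on plates coated with the Notch ligand DL4 at 10 µg/mL and the adhesion molecule VCAM-1 at 2.32 µg/mL, to drive them toward the T-cell lineage *in vitro*. The 2 droplet libraries made with 10X Chromium and sequenced from the 3' end, FL001 and FL002, carry these same labels. According to the study, cells from the start and from later culture days were pooled, and the labels do not give the days in a library. Nothing in the labels says whether the libraries came from separate embryos or cultures. The p-values below rest on how far differences between groups of cells disagree between these 2 libraries. That disagreement may be technical. For a typical gene its size was estimated more from all genes together than from the gene itself. The prior degrees of freedom, which stand for all genes, had a median of 32.3, against 4 residual degrees of freedom. No chemical or genetic treatment separates the libraries, and the comparisons are therefore between groups of cells inside each library, chosen by their stage genes. These groups may also differ in days of culture, and so in time on DL4 and VCAM-1. Culture time was not tested apart from differentiation.

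Mitochondria pass electrons from NADH, through complex I, and from succinate, through complex II, by way of complexes III and IV to oxygen. Complexes I, III and IV pump protons as they do so, and ATP synthase uses the proton gradient to make ATP. The mitochondrial genome encodes a few subunits of complexes I, III and IV and of ATP synthase, most of them in the membrane part, while complex II is wholly nuclear, so that each other complex needs the products of both genomes. Blood stem cells of the adult bone marrow are known for a low use of this pathway, which rises as they differentiate. The cells here were fetal, and their use of the pathway was not measured.

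Cells were kept at 1500 or more unique molecular identifiers (UMIs, 1 per captured transcript), 500 or more genes and at most 10% mitochondrial UMIs, which left 1788 cells in FL001 and 4100 in FL002, with medians of 7722 and 4752.5 UMIs. They were split into 5 gates by the UMIs of 7 stage genes. The progenitor gate needed 2 or more UMIs of the progenitor factors *Lmo2* and *Mef2c* with at most 1 of *Cd3g*. The early gate had at most 2 of *Cd3g* and at most 1 of *Lmo2* and *Mef2c*. The Cd3g gate needed 3 or more of *Cd3g*, a chain of the T-cell receptor complex, with none of *Il2ra*. The Il2ra gate needed 1 or more of *Il2ra*, the surface antigen CD25 of the next thymocyte stages, and the commitment gate 2 or more of *Ptcra*, *Lef1* and *Bcl11b*. A cell that met several gates was placed in the latest. In this order the gates held 408, 301, 159, 463 and 451 cells of FL001 and 686, 848, 675, 1377 and 501 cells of FL002. A list of 8 other T-lineage genes, summed, ran from 577 and 636 CPM (UMIs per 1000000 UMIs) in the progenitor gate of FL001 and FL002 to 3599.7 and 3604 CPM in the commitment gate, and a list of 6 progenitor genes from 547 and 506 CPM to 78.1 and 67.6 CPM. UMIs were summed per gate and library and fitted with the quasi-likelihood test of edgeR with the library as a block, over all 8640 genes with 200 or more UMIs. Genes with an adjusted p (Benjamini-Hochberg over all these genes) of at most 0.05 are called higher or lower. Of the 92 members, 86 reached 200 UMIs and were tested.

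Marker genes of other cell types were detected, and their levels differed between the gates. The summed neutrophil and monocyte list of 10 genes was at 2690 and 1798 CPM in the progenitor gates, 4580 and 1609 CPM in the early gates and 343 and 348 CPM in the commitment gates of FL001 and FL002, and the megakaryocyte list of 6 genes at 759 and 404 CPM in the progenitor gates and 11.5 and 11.4 CPM in the commitment gates. Other lists were higher in the commitment gates, with 5 mast cell and basophil genes at 18.8 and 39.5 CPM in the progenitor and 115 and 98.8 CPM in the commitment gates and 7 innate lymphoid and NK genes at 101 and 78.5 against 219.9 and 228 CPM. A list of 6 B cell genes was at 66.5 and 65.4 CPM in the progenitor and 49.5 and 48.6 CPM in the commitment gates. The early gate of FL001 differed from that of FL002, with *S100a8* at 1659.6 CPM against 379.8 CPM in FL002 and an erythroid list at 931 CPM against 15.1 CPM. The Il2ra gates differed in the erythroid list too. There it was 11.8 times its progenitor gate level in FL001 and 0.197 times in FL002. A list of 10 mitosis genes was at 1607 and 1621 CPM in the progenitor gates and at 1155 to 1353 CPM in the others. The libraries shared 10 barcodes. Cells with 3 or more summed UMIs of the neutrophil, megakaryocyte, erythroid and mast cell lists, 1314 in FL001 and 2039 in FL002, are called other-lineage cells below. The name goes by UMIs only. Whether these UMIs came from other cell types, from the progenitors and T-lineage cells or from free RNA was not tested. Their part in the results below was not tested other than by leaving cells out.

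Together the 92 members made up 3.77% of all UMIs of FL001 and 3.67% of those of FL002. Their summed level in FL001 was 35241 CPM in the progenitor gate, 36620 in the early gate, 39953 in the Cd3g gate, 38451 in the Il2ra gate and 39012 in the commitment gate. In FL002 it was 36172, 36890, 37494, 36384 and 36921 CPM in the same order. The sum was thus lowest in the progenitor gate and highest in the Cd3g gate of both libraries, but the commitment gate lay 10.7% above the progenitor gate in FL001 and 2.07% above it in FL002. The order in FL002 depended on the cells used. With thinned cells its early gate was highest (36033 CPM, against 35413 in the Cd3g gate), and its commitment gate was highest without other-lineage cells (36105 against 35637 CPM), with at most 1 mitosis UMI (34544 against 33833 CPM) and at 3000 to 8000 UMIs (36799 against 36532 CPM), where its Il2ra gate was lowest (35153 CPM). The sum of the 13 mt- genes was 16.9% and 20.2% higher over the same gates, from 32953 to 38531 CPM in FL001 and from 32116 to 38591 CPM in FL002. The ratio of the mt- sum to the nuclear sum was 0.935 and 0.888 in the progenitor gates and 0.988 and 1.05 in the commitment gates.

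**Figure D1:**
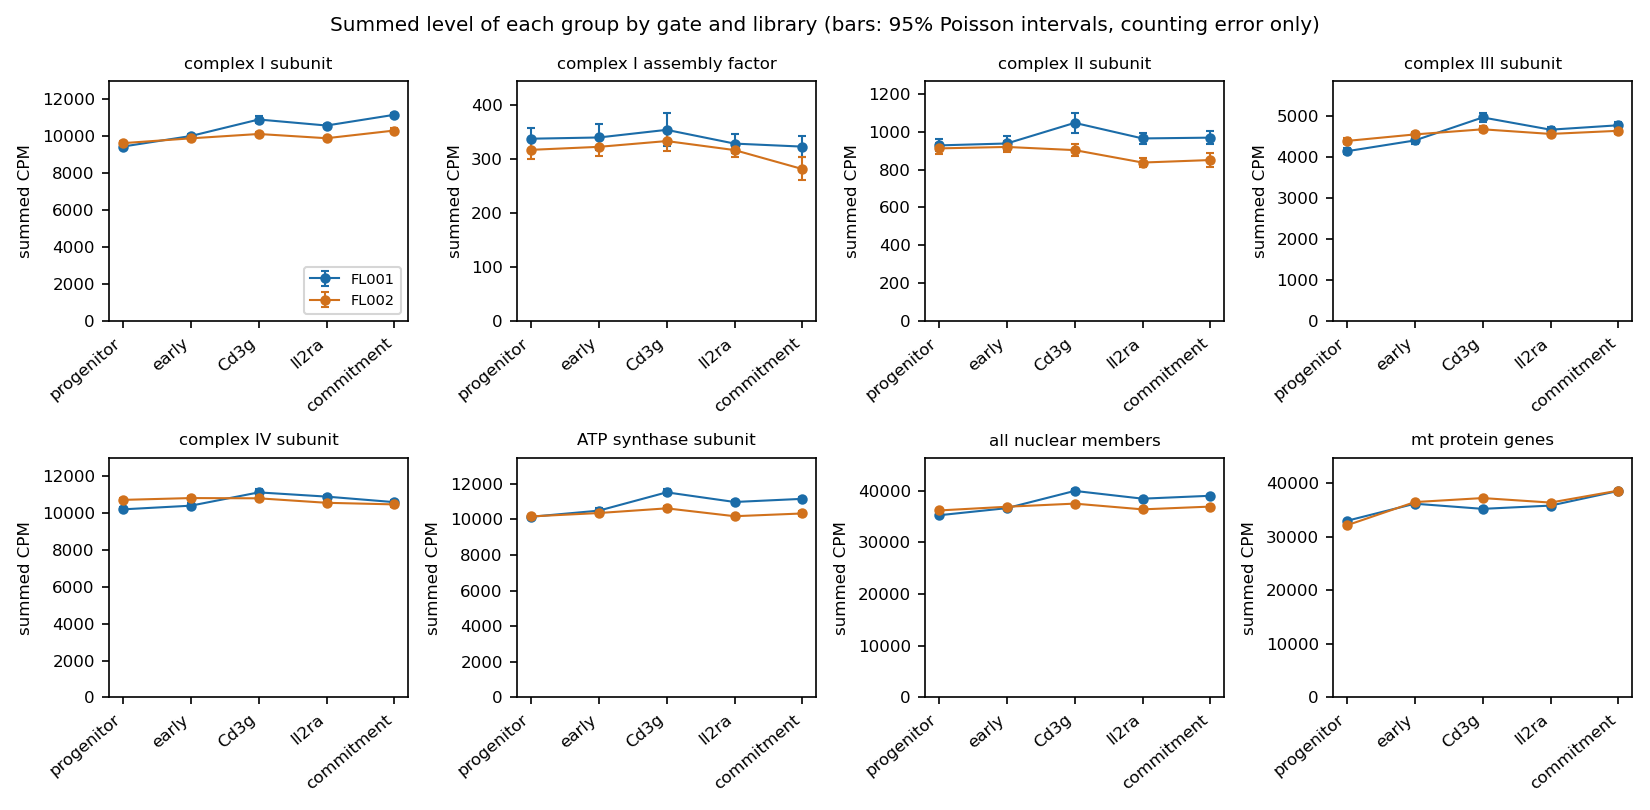
Summed level in CPM (vertical axes, from 0) of each complex, of all nuclear members and of the mt- protein genes in the 5 gates (horizontal axes), with a line for each library and bars for the 95% Poisson interval, which covers counting error only. The complex I sum reaches 11165 CPM in FL001 and 10312 CPM in FL002 in the commitment gate, while the complex II and complex IV sums of FL002 end below their progenitor gate.

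By complex, the sums differed in size and, for some, in direction between the libraries. From the progenitor to the commitment gate the summed level of the complex I subunits went from 9444 to 11165 CPM in FL001 (18.2% higher) and from 9628 to 10312 CPM in FL002 (7.10% higher). The complex III sum was 15.3% and 5.63% higher and the ATP synthase sum 9.95% and 1.63% higher. For complex IV, where FL001 ended 3.83% above and FL002 2.28% below its progenitor gate, and for complex II, with 4.41% above and 6.76% below, the libraries went opposite ways. The 7 assembly factors of complex I were lower in sum in both, with differences of -4.34% and -11.2%. The sums were not tested and are given as descriptions.

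For single genes, the commitment gate against the progenitor gate spans the whole course. Of the 86 members tested, 29 rose and 6 fell, or 33.7% and 6.98%, where 20.5% of all 8640 genes rose and 18.6% fell. Genes with more UMIs are called more readily, and the members had a median of 12456 UMIs against 1082.5 for all genes tested. All 35 changed in the same direction in both libraries. The changes were small: the 29 that rose did so by 0.17 to 0.78 on the log2 scale, 16 of them by more than 1.25-fold and 3 by more than 1.5-fold. They were also larger in FL001 than in FL002 for 27 of the 29. The median log2 change of the 86 members was 0.09 in the fit, 0.19 in FL001 alone and 0.02 in FL002 alone, while the median of all genes tested was -0.004 in FL001 and 0.002 in FL002. Without the library block, 19 members rose and 4 fell, and with each cell thinned to 1500 UMIs before gating, 11 rose and 3 fell of 81 that could be tested. Fewer of all genes were called there too. Without the block 14.1% rose and 11.97% fell, and with thinned cells 9.17% rose and 8.65% fell. In the 15 alternative settings (other scalings, filters, gates and cells left out), 13 of the 35 kept their call in every setting that tested them.

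**Figure D2:**
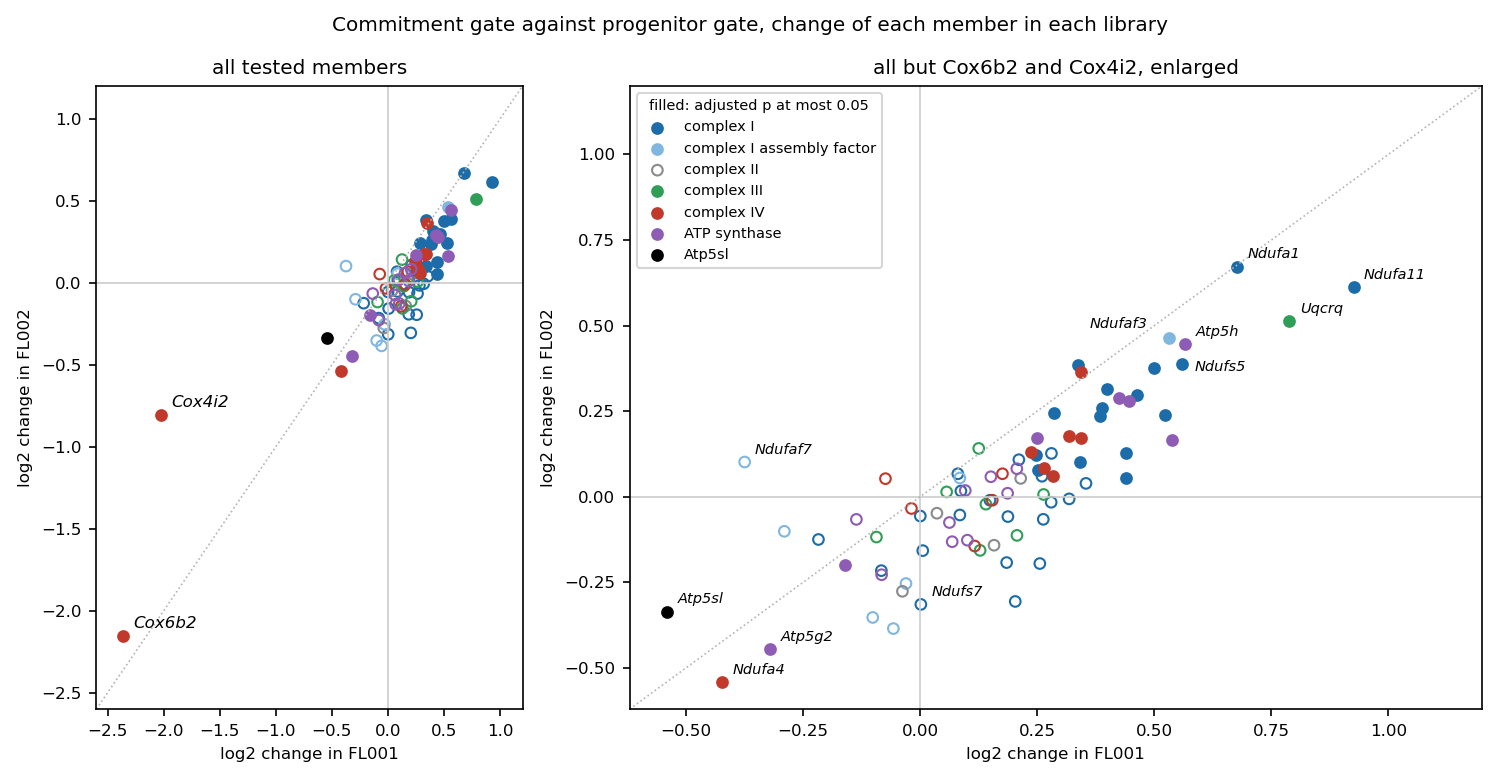
Log2 change from the progenitor to the commitment gate of each of the 86 members tested in FL001 (horizontal axis) and FL002 (vertical axis), for all (left) and without *Cox6b2* and *Cox4i2* (right); colours give the complex, filled points have an adjusted p of at most 0.05 and the dotted line marks equal change. The filled points lie in the upper right and lower left corners, and most of the 29 higher ones lie below the dotted line, with a median of 0.40 in FL001 and 0.24 in FL002.

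Complex I held most of the members that rose, 16 of its 36 subunits (44.4%) with none lower, and a median log2 change of 0.16. Over all genes 20.5% rose and 18.6% fell. Its 7 core subunits of nuclear origin carry the flavin and the iron-sulfur clusters, and its other subunits surround this core. This grouping was made after the values were seen. Of the 29 surrounding subunits 15 rose, with a median of 0.20, and of the 7 core subunits 1 rose, with a median of -0.03. The libraries disagreed on the core, with a median of 0.20 in FL001 and -0.06 in FL002. For the surrounding subunits the medians were 0.32 and 0.08. Of the core subunits 2 were higher and 1 lower in both libraries, and of the surrounding subunits 20 and 1. Of all 8640 genes 3250 were higher and 3253 lower in both. The core subunit that rose was *Ndufv2* at 0.18 ± 0.07 (SE; adjusted p = 0.042), a call held in 3 of 15 alternative settings. The difference between core and surrounding subunits was not tested.

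*Ndufa11*, a subunit of the membrane arm of complex I, rose most. It was at 214, 228, 321, 270 and 396 CPM in the 5 gates of FL001 and at 219, 249, 297, 282 and 332 CPM in those of FL002, so that both progenitor gates lay below all other gates and both commitment gates above them. The log2 change was 0.78 ± 0.08 (SE; 1.72-fold, adjusted p = 4.3e-10). *Ndufa1*, a small membrane subunit that complex I assembly needs, went through 136, 156, 196, 192 and 212 CPM in FL001 and 140, 160.0, 199, 194 and 222 CPM in FL002, with nearly the same values in both libraries and a change of 0.68 ± 0.08 (adjusted p = 7.83e-09). *Ndufs5* (0.48 ± 0.07), *Ndufv3* of the NADH-binding module (0.44 ± 0.07) and *Ndufb10* of the membrane arm (0.39 ± 0.07) followed, with adjusted p of 4.02e-07, 4.34e-06 and 3.77e-05. Of the complex I genes with most UMIs, *Ndufab1*, the mitochondrial acyl carrier protein, rose by 0.23 ± 0.06 (adjusted p = 0.00455), while *Ndufa12* (0.16 ± 0.07, adjusted p = 0.0753) and *Ndufa2* (0.07 ± 0.06, adjusted p = 0.395) did not pass.

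Of the 7 assembly factors of complex I, *Ndufaf3* rose by 0.51 ± 0.14 (adjusted p = 0.00352), from 33.7 to 47.6 CPM in FL001 and from 29.4 to 40.5 CPM in FL002. Its partner in assembly, *Ndufaf4*, had a change of -0.22 ± 0.10 (adjusted p = 0.0755), with *Ndufaf2* at -0.13 ± 0.12 and *Ndufaf6* at -0.19 ± 0.14, none of which passed. The median over the 7 factors was -0.18. Thus 1 of 7 (14.3%) was called higher, where 20.5% of all genes were. DESeq2 called 0 of 7, where it called 12.3% of all genes higher and 10.8% lower.

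In complex II, 0 of the 4 subunits were called by edgeR, where 20.5% of all genes rose and 18.6% fell, by DESeq2 or in any other alternative setting. *Sdha*, the flavoprotein that oxidizes succinate, changed by 0.14 ± 0.08, *Sdhb*, the iron-sulfur subunit, by -0.01 ± 0.07, and the membrane anchors *Sdhc* and *Sdhd* by -0.15 ± 0.10 and 0.01 ± 0.07. In CPM, *Sdha* was at 186 in the progenitor and 210.4 in the commitment gate of FL001 and at 167 and 172 in FL002. Their adjusted p ran from 0.206 to 0.966, and their unadjusted p from 0.111 to 0.946.

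In complex III, 1 of 8 subunits rose (12.5%, where 20.5% of all genes did), and by more than most members of any complex. *Uqcrq*, a small subunit near the ubiquinone site, was at 757, 948, 1137, 1086 and 1271 CPM in FL001 and at 813, 913, 1064, 1039.8 and 1154 CPM in FL002, a log2 change of 0.65 ± 0.06 (adjusted p = 7.81e-12). *Uqcrb* (-0.11 ± 0.06) and *Uqcrh* (0.04 ± 0.06), the hinge protein beside cytochrome c1, did not pass, at adjusted p of 0.185 and 0.65. *Uqcrq* was also the only member called in 3 of the 4 successive steps.

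Complex IV had 6 subunits higher and 3 lower of 14 tested (42.9% and 21.4%, where 20.5% and 18.6% of all genes were). Those that rose were *Cox6a1* (0.35 ± 0.06), *Cox5a* (0.26 ± 0.06), *Cox6c* (0.25 ± 0.06), *Cox5b*, *Cox7a2* and *Cox7c*, the last 3 by 0.17 to 0.18. The calls of these last 3 held in 7, 9 and 9 of 15 alternative settings, and DESeq2 called 3 subunits higher and 3 lower. *Cox4i1*, the regulatory subunit with most UMIs of the group, stayed between 1438 and 1521 CPM in FL001 and between 1493 and 1555 CPM in FL002, with a change of -0.03 ± 0.05 (adjusted p = 0.718). *Ndufa4*, first assigned to complex I and since known as a subunit of complex IV, fell. It was at 1686, 1373, 1411, 1388 and 1223 CPM in FL001 and at 1812, 1448, 1335, 1289 and 1238 CPM in FL002, a change of -0.48 ± 0.06 (adjusted p = 3.24e-09), and it kept the call in all 15 alternative settings. The others that fell were *Cox6b2* and *Cox4i2*, described with the isoforms below.

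ATP synthase had 5 of 16 subunits higher and 2 lower (31.2% and 12.5%, where 20.5% and 18.6% of all genes were). Those higher were *Atp5h* (0.51 ± 0.07, adjusted p = 6.4e-08), *Atp5j* (0.36 ± 0.05) and *Atp5f1* (0.35 ± 0.07) of the peripheral stalk, *Atp5l* (0.36 ± 0.06) of the membrane part and *Atp5g3* (0.21 ± 0.06) of the rotor ring. *Atp5h* went from 329.8 to 475 CPM in FL001 and from 316 to 428 CPM in FL002. *Atp5a1*, the alpha subunit of the catalytic head, fell by 0.18 on the log2 scale (SE 0.06, adjusted p = 0.0143), a call lost in 4 of 15 alternative settings, and *Atp5b*, the beta subunit, changed by 0.10 ± 0.05 (adjusted p = 0.156). *Atp5g2*, another gene of the rotor ring, fell by 0.38 (SE 0.06, adjusted p = 1.84e-06). *Atp5sl*, known in later work as an assembly factor of complex I, fell by 0.45 (SE 0.18, adjusted p = 0.042), from 30.0 to 19.9 CPM in FL001 and from 26.4 to 20.7 CPM in FL002, a call lost in 6 of 13 alternative settings.

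**Figure D3:**
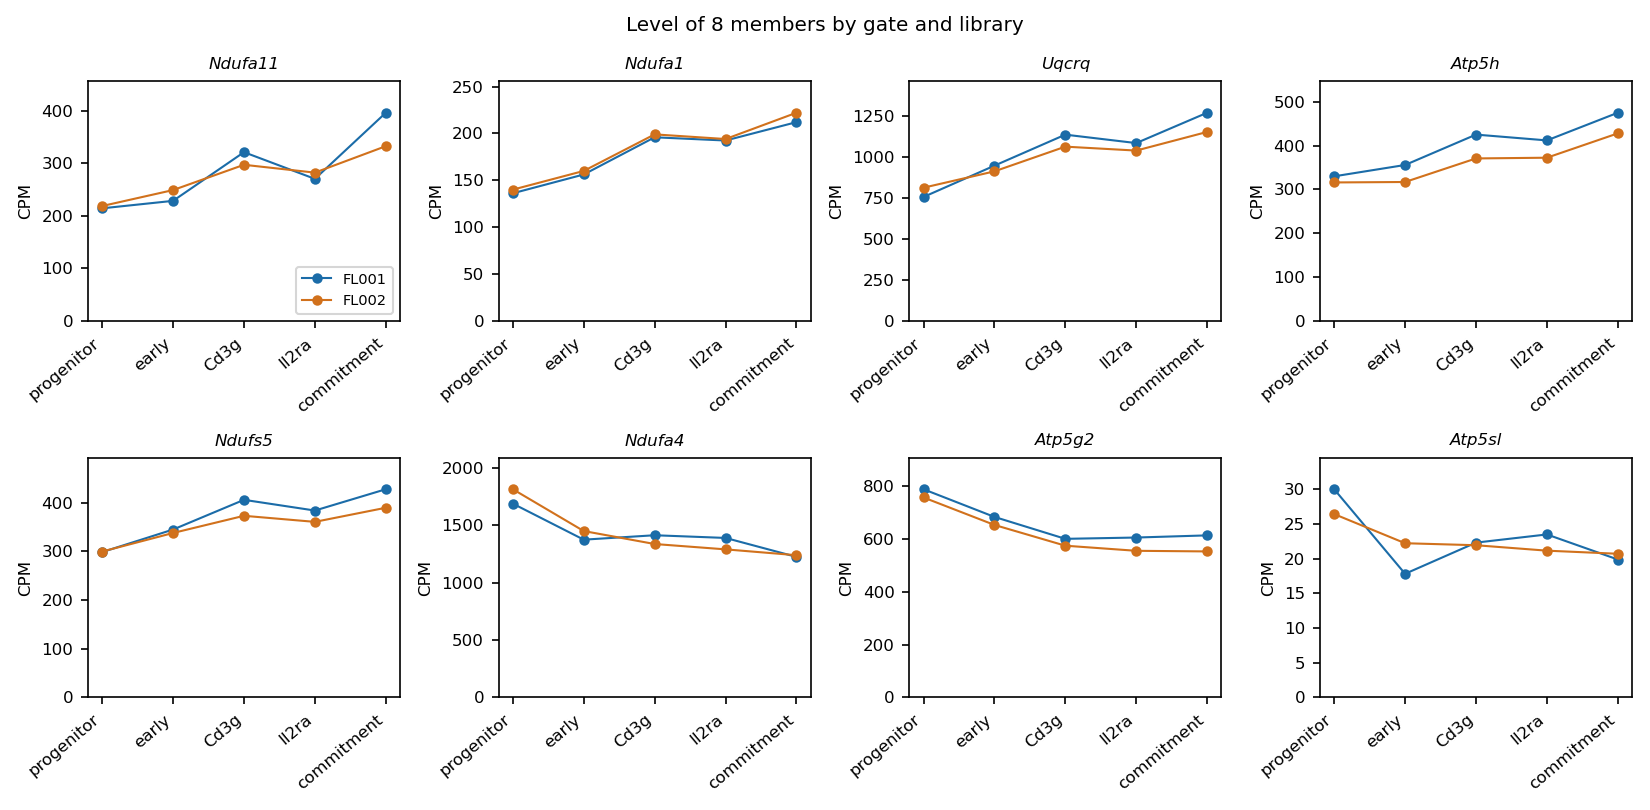
Level in CPM (vertical axes, from 0) of 8 members in the 5 gates (horizontal axes), with a line for each library. *Ndufa11*, *Ndufa1*, *Uqcrq*, *Atp5h* and *Ndufs5* end above their progenitor gate in both libraries, and *Ndufa4*, *Atp5g2* and *Atp5sl* end below it.

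Several complex IV subunits have a second gene that is used in few tissues. Of these, *Cox6b2* and *Cox4i2* had enough UMIs to be tested, and both fell. *Cox6b2*, the testis isoform of *Cox6b1*, was at 58.5, 37.8, 18.2, 17.6 and 10.6 CPM in the gates of FL001 and at 51.1, 33.0, 14.9, 13.5 and 10.98 CPM in those of FL002. It was lower at each gate than at the one before in both libraries, and fell by 2.33 on the log2 scale over the whole course (SE 0.18; 5.04-fold lower, adjusted p = 9.24e-14). *Cox6b1* itself stayed between 649 and 712 CPM in FL001 and between 699 and 746 CPM in FL002 (0.12 ± 0.06, adjusted p = 0.103). *Cox6a2*, the heart and muscle isoform of *Cox6a1*, was too low for the test, with 67 UMIs in FL001 and 88 in FL002. Of these, 44 and 52 were in the progenitor gates, at 12.6 and 13.1 CPM, and 13 and 5 in the commitment gates, at 3.64 and 2.11 CPM, while *Cox6a1* rose from 453 to 559 CPM and from 420.2 to 538 CPM.

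*Cox4i2*, the isoform of *Cox4i1* known for its use in lung and under low oxygen, did not fall steadily. It was at 12.3, 15.1, 6.76, 11.7 and 2.52 CPM in FL001 and at 12.3, 20.6, 10.8, 17.4 and 6.76 CPM in FL002, highest in the early gate of both libraries and lowest in the commitment gate of both. The change from progenitor to commitment gate was -1.46 ± 0.31 (adjusted p = 0.000252), but -2.02 in FL001 and -0.81 in FL002, and the commitment gates held only 9 and 16 of its UMIs. *Cox7a2* rose by 0.18 ± 0.06 and *Cox7a2l*, which joins complexes III and IV, changed by -0.01 ± 0.07, while *Cox7a1*, the heart and muscle isoform, had 33 and 42 UMIs in all. *Cox7b* (-0.01 ± 0.06) and *Cox8a* (0.07 ± 0.06) did not pass. The testis isoform *Cox7b2* had 0 and 2 UMIs, *Ndufa4l2*, an isoform of *Ndufa4* known from low oxygen, 1 and 0, and *Cox8b* and *Cox8c* had 0 UMIs in both libraries.

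The c subunit of the rotor ring is encoded by 3 genes that give the same mature protein, and their levels moved apart. *Atp5g2* fell from 788 to 613 CPM in FL001 and from 756 to 552 CPM in FL002, *Atp5g3* rose from 411 to 475 and from 422 to 472 CPM, and *Atp5g1* had no call (-0.03 ± 0.06), at 1045 and 1065 CPM in FL001 and at 954 and 866 CPM in FL002. The rise of *Atp5g3* was absent with thinned cells (-0.0027). Exons of *Atp5g2* overlap another gene on the same strand, as do exons of *Ndufb2*, *Ndufb9*, *Ndufb8* and *Atp5o*, and reads there may not have been assigned to either, while *Atp5l*, *Ndufab1* and *Uqcrh* have annotated pseudogenes that could share reads, so that their values are less certain.

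**Figure D4:**
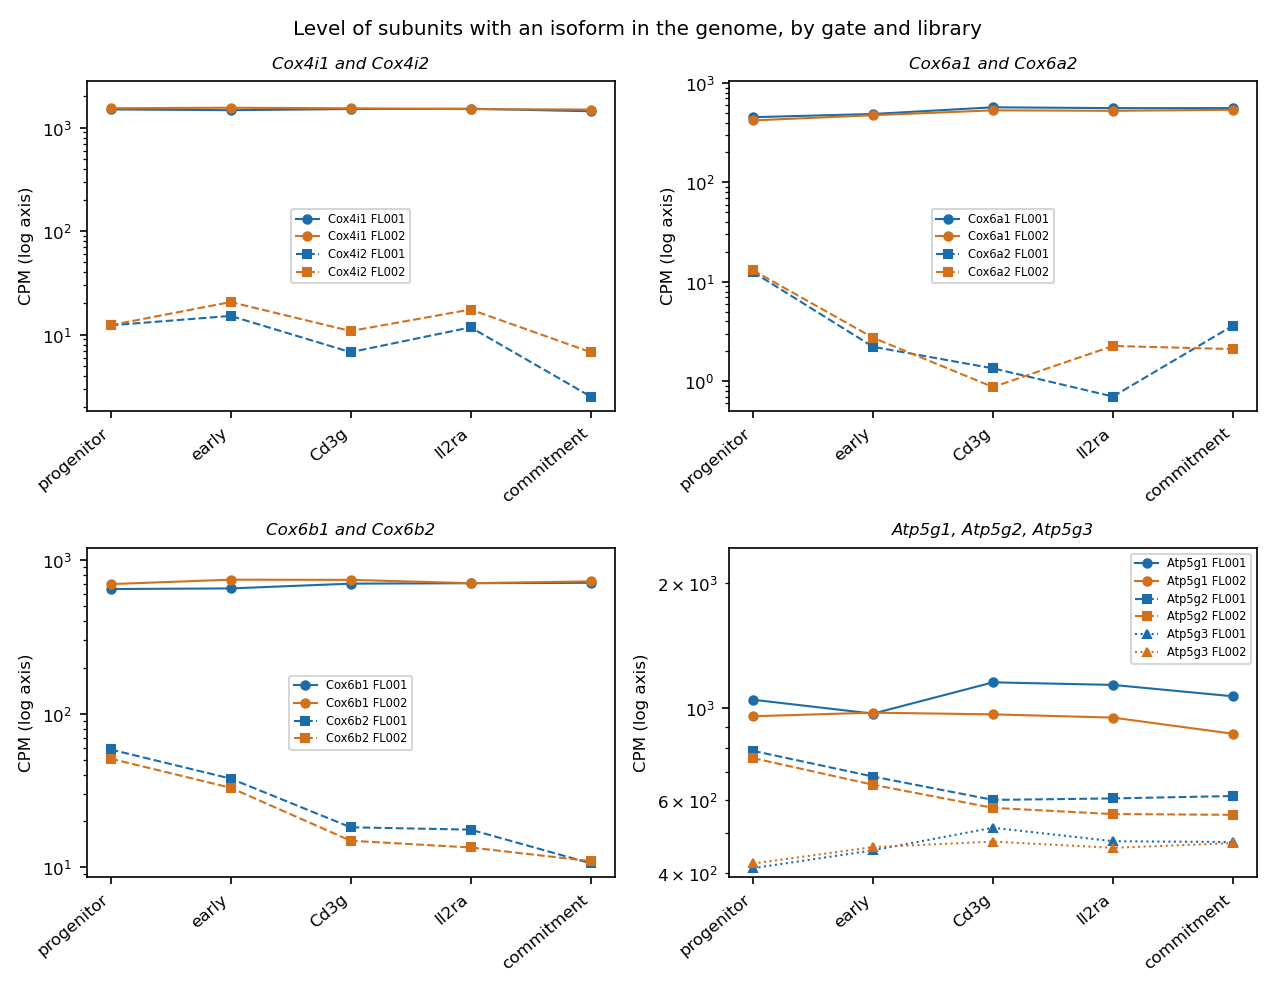
Level in CPM (vertical axes, logarithmic) of isoform genes in the 5 gates (horizontal axes); line style and marker give the gene and colour the library. *Cox6b2* falls from 58.5 to 10.6 CPM in FL001 and from 51.1 to 10.98 CPM in FL002 while *Cox6b1* stays between 649 and 746 CPM, and *Cox6a2* and *Cox4i2* stay under 21 CPM throughout.

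To give the sequence at the start of the genes that moved most, promoter windows were read from RefSeq on GRCm38.p6, from 250 bases before to 50 after the annotated start; 73 of the 92 members had a window. Those of the 2 genes that rose most and, among the members that fell and had a window, the 2 that fell most are printed 5′ to 3′ on the gene's strand. Capitals mark matches to motifs of factors known to act on respiratory chain genes: NRF1 (GCGCATGC), ETS factors such as GABPA (CCGGAAG) and YY1 (AAGATGG), each searched on both strands.
Ndufa11, chr17:56717512-56717811, plus strand: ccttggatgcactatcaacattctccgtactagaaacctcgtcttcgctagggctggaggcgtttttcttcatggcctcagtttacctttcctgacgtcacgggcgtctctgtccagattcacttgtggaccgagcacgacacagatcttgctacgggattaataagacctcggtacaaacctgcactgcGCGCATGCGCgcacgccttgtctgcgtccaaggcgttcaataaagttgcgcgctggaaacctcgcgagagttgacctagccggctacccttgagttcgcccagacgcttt
Ndufa1, chrX:37191189-37191488, minus strand: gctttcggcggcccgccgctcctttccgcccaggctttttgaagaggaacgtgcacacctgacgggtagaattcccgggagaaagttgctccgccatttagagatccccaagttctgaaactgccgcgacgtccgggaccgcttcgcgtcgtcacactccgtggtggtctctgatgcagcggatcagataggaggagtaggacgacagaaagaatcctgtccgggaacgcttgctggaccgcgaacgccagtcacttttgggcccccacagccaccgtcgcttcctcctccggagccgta
Cox6b2, chr7:4753045-4753344, minus strand: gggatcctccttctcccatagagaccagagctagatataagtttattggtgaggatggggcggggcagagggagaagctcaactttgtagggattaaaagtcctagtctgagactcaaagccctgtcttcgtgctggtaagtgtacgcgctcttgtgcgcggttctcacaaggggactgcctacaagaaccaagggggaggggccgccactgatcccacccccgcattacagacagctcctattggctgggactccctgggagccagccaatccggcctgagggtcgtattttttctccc
Ndufa4, chr6:11907401-11907700, minus strand: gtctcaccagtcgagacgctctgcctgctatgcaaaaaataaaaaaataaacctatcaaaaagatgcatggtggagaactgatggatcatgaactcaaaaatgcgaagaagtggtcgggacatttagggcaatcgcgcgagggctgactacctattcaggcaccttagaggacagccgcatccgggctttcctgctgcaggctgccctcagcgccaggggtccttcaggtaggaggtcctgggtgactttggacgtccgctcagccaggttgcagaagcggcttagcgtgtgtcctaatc
The *Ndufa11* window holds 2 overlapping matches to the NRF1 motif, 60 and 58 bases before the start, and the other windows hold none of the letters searched. Over the members with a window, 16.4% held the NRF1 motif, 23.3% the ETS motif and 13.7% the YY1 motif, against 3.05%, 9.93% and 7.28% of all 27025 genes with a window. Any of the 3 was found in 45.2% of members and in 18.6% of all genes. All genes here included those not expressed in these cells, so these shares do not set the members against other expressed genes. Among the members, 44.0% of the 25 that rose and 46.7% of the 45 without a call had a match to any of them. By motif these shares were 16.0% and 15.6% for NRF1, 20.0% and 26.7% for ETS and 20.0% and 11.1% for YY1, and the differences were not tested. A match is a string of letters and not a site shown to be bound.

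The change was then followed step by step. From the progenitor to the early gate 5 members rose and 3 fell, where 7.58% of all genes rose and 5.35% fell. *Cox5a* rose by 0.27 ± 0.06, *Uqcrq* by 0.25 ± 0.06 and *Atp5l* by 0.21 ± 0.06 (adjusted p = 0.00059, 0.00276 and 0.00811), with *Cox6c* and *Atp5j* the other two. *Cox6b2* fell by 0.62, *Ndufa4* by 0.31 and *Atp5g2* by 0.21 (adjusted p = 0.00119, 7.64e-05 and 0.0134). None of the 36 complex I subunits was called in this step by edgeR or DESeq2. In both libraries 22 were higher and 5 lower, where 2936 and 2972 of all 8640 genes were. By edgeR 4 of the 36 had an unadjusted p of at most 0.05, a smaller share than the 2153 of all 8640 genes. Without the library block 1 member was called, DESeq2 called 4 and leaving out the 1314 and 2039 cells with 3 or more UMIs of neutrophil, megakaryocyte, erythroid or mast cell genes left 2. The shares of all genes were 2.73% higher and 1.79% lower without the block. They were 3.84% and 1.92% by DESeq2 and 2.22% and 1.94% without those cells. The early gate of FL001 is the one that held *S100a8* at 1659.6 CPM.

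From the early to the Cd3g gate 6 members rose and 2 fell, where 4.69% of all genes rose and 3.99% fell. *Ndufa11* rose by 0.37 ± 0.08, *Ndufa1* by 0.33 ± 0.08 and *Uqcrq* by 0.25 ± 0.06 (adjusted p = 0.00239, 0.00667 and 0.00283), with *Atp5h*, *Atp5l* and *Cox6a1*. *Cox6b2* fell by 1.10 and *Cox4i2* by 0.98 (adjusted p = 5.19e-05 and 0.0113). Members were higher in both libraries in 48 of 86 cases and lower in both in 8, where 2742 and 2695 of all 8640 genes were. The median change of the members was 0.13 in FL001 and 0.02 in FL002. Without the block 1 was called, where 1.68% of all genes rose and 1.34% fell.

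Between the Cd3g and the Il2ra gate 0 members were called by edgeR and 0 by DESeq2. By edgeR 4 of 86 had an unadjusted p of at most 0.05, where 353 of all 8640 genes did. Few genes of any kind changed here, with 0.081% of all genes higher and 0.0231% lower. The median of the members was -0.03, and 43 of 86 were lower in both libraries against 6 higher in both. Of all 8640 genes 2208 were lower in both and 2436 higher in both. None of these single differences passed.

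From the Il2ra to the commitment gate 5 members rose and 1 fell, where 5.36% of all genes rose and 4.79% fell. *Ndufa11* rose again, by 0.40 ± 0.08 (adjusted p = 0.000223), with 0.56 in FL001 and 0.23 in FL002. *Ndufb11* and *Ndufa13*, both of complex I, rose by 0.25 ± 0.07 and 0.24 ± 0.06 (adjusted p = 0.0138 and 0.00833), with *Atp5h* and *Uqcrq*. *Cox4i2* fell by 1.74 (SE 0.29, adjusted p = 2.56e-05). Without the block 2 members were called, DESeq2 called 2, and with a cell counted in each gate it met, 1. In the same order 2.05%, 2.13% and 3.03% of all genes rose and 1.69%, 1.72% and 2.48% fell. Over the 4 steps 15 members were called at least once, and 5 of them in 2 steps. The shares of all genes called in any step or in several steps were not computed. These counts are therefore descriptions and do not set the members apart from other genes.

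Of the 13 mt- genes, which encode 7 subunits of complex I, 1 of complex III, 3 of complex IV and 2 of ATP synthase, 10 rose from the progenitor to the commitment gate and none fell. That was 76.9% higher, where 20.5% of all genes rose and 18.6% fell, and genes with more UMIs are called more readily. *mt-Co2*, of complex IV, rose most, from 3639 to 5186 CPM in FL001 and from 3576 to 5161 CPM in FL002, a change of 0.55 ± 0.05 (adjusted p = 1.08e-12). Among the complex I genes *mt-Nd3* rose by 0.48 ± 0.08, *mt-Nd2* by 0.43 ± 0.06, *mt-Nd4l* by 0.38 ± 0.10 and *mt-Nd4* by 0.23 ± 0.05. *mt-Cytb*, of complex III, rose by 0.30 ± 0.05, *mt-Atp6* by 0.28 ± 0.04, and *mt-Co1* and *mt-Co3* by 0.19 ± 0.05 and 0.19 ± 0.04. *mt-Nd1* rose by 0.11 ± 0.04 (adjusted p = 0.0412), a call lost in 9 of 14 alternative settings and reversed in 1 more. The calls of *mt-Nd4l*, *mt-Co1*, *mt-Nd4* and *mt-Co3* were lost in 5, 3, 3 and 2 of 14. For *mt-Nd4l*, *mt-Co1* and *mt-Co3* the settings that lost the call included the mt- limit of 5%. DESeq2 called 8 of the 13 higher, where it called 12.3% of all genes higher and 10.8% lower. *mt-Nd5* (0.19 ± 0.08, adjusted p = 0.0599), *mt-Nd6* and *mt-Atp8*, the last at under 25 CPM in every gate, did not pass.

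Unlike the nuclear members, the mt- genes had medians that were alike in the libraries, 0.28 in FL001 and 0.28 in FL002. In the first step 7 of 13 rose (53.8%, where 7.58% of all genes rose), with *mt-Co2* by 0.34 ± 0.05 and *mt-Nd3* by 0.43 ± 0.08. In either of the next 2 steps 0 were called by edgeR or by DESeq2. By edgeR 2 and 0 of the 13 had an unadjusted p of at most 0.05, where 1716 and 353 of all 8640 genes did. In the last step *mt-Atp8* was called by edgeR, at 0.69 ± 0.20 (adjusted p = 0.0213), or 7.69% of the 13, where 5.36% of all genes rose. DESeq2 called 0 of the 13 in that step, where it called 2.13% of all genes higher and 1.72% lower. How the higher mt- sum was spread over the steps depended on the cells used. The progenitor, early and commitment gates were at 32953, 36142 and 38531 CPM in FL001 and at 32116, 36447 and 38591 CPM in FL002, but with thinned cells at 34083, 35840.3 and 45017 CPM and at 34281, 36419.6 and 42568 CPM. Thinning also moved cells between gates. The early gates held 864 and 1916 thinned cells, against 301 and 848 without thinning. Because cells with over 10% mt- UMIs were left out, the filter bears on these genes directly: with a limit of 5% the mt- sum was 8.12% and 13.9% higher in place of 16.9% and 20.2%. In barcodes of 1 to 100 UMIs, which hold free RNA, the mt- sum was 79778 and 55688 CPM and the nuclear sum 36884 and 35239 CPM, so that free RNA was richer in mt- transcripts than any gate.

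**Figure D5:**
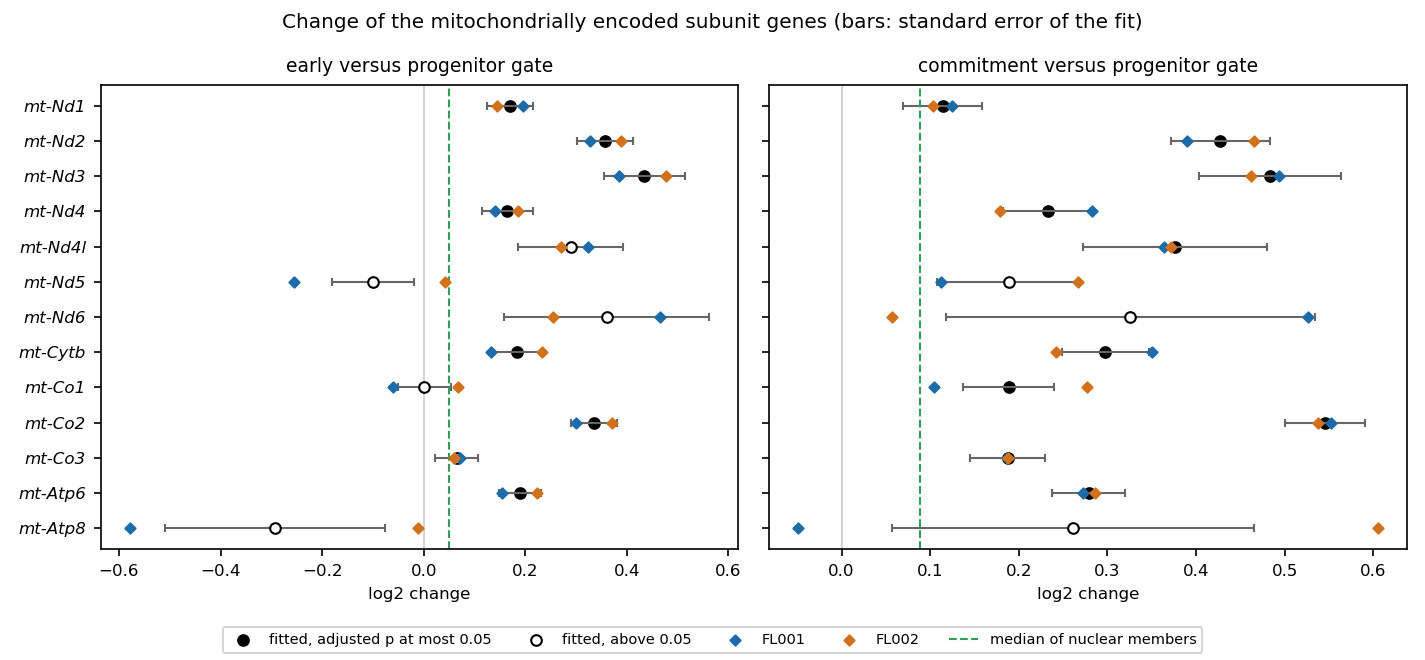
Log2 change (horizontal axes) of the 13 mt- genes from the progenitor to the early gate (left) and to the commitment gate (right); circles are fitted values with their SE, filled where the adjusted p is at most 0.05, diamonds are the libraries and the dashed line is the median of the 86 nuclear members. On the right 10 circles are filled, and the dashed line lies at 0.09.

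Within a gate the members varied from cell to cell in a narrow range. Their share of a cell's UMIs had a median of 3.45% in the progenitor gate and 3.82% in the commitment gate of FL001 (5th to 95th percentile 2.68 to 4.16% and 2.84 to 4.58%), and of 3.49% and 3.56% in FL002. The share rose with depth. In 3 equal classes of cells, from shallow to deep, its medians were 3.37%, 3.60% and 3.98% in FL001 and 3.19%, 3.44% and 3.91% in FL002. The median depth of a cell in the 5 gates was 7887, 7094, 8436, 8478 and 6998 UMIs in FL001. In FL002 it was 5536.5, 4833, 4321, 4518 and 4175 UMIs. With each cell thinned to 1500 UMIs before gating, the progenitor and commitment gates kept 112 and 156 cells of FL001 and 211 and 196 of FL002. The nuclear sum was then 8.0% and 3.01% higher in the commitment gate and the mt- sum 32.1% and 24.2% higher. Within cells of 3000 to 8000 UMIs the nuclear sum was 10.0% and 3.98% higher, and without the cells with other-lineage UMIs 9.18% and 7.52% higher. The nuclear sums of the Cd3g gates, 39953 and 37494 CPM in all cells, were 36477 and 36532 CPM within 3000 to 8000 UMIs. Across all cells of a library, the nuclear and mt- shares had a Pearson correlation of -0.14 over 1788 cells and -0.24 over 4100, a description in which both shares have the same total below them.

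Between the libraries as a whole the members differed little. The ratio of CPM in FL002 to FL001 had a median of 0.958 over the 86 members tested, and 84 of them lay within 1.25-fold. The exceptions were *Cox4i2*, at 1.52, and *Ndufaf7*, an assembly factor of complex I, at 0.712; both names were taken after the values were seen.

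Genes of lists that work with the respiratory chain are read against the same shares of all genes, 20.5% higher and 18.6% lower. Of 16 genes of the citrate cycle 3 rose and 3 fell (18.8% each) from the progenitor to the commitment gate, close to those shares, with a median of -0.003. *Suclg2*, of succinyl-CoA ligase, fell by 0.84 (SE 0.10) and *Idh3g*, of isocitrate dehydrogenase, by 0.38 (SE 0.09), while *Dlst*, of the oxoglutarate dehydrogenase complex, rose by 0.38 ± 0.15. The *Dlst* call was lost in 10 of 15 alternative settings, DESeq2 among them. Among 8 genes of cytochrome c, c1 and other electron carriers, *Etfdh*, which passes electrons from fatty acid oxidation to ubiquinone, rose by 0.65 ± 0.14, and 3 fell, with *Coq10b* at -0.57 ± 0.20 and *Coq7* at -0.36 ± 0.13, both of the ubiquinone group. *Coq7* changed by -0.06 in FL001 and -0.71 in FL002. Its call was lost in 6 of 15 alternative settings and reversed in 1 more. Of 32 other assembly factors 4 rose and 5 fell (12.5% and 15.6%). *Cox17*, a copper chaperone of complex IV, rose by 0.65 ± 0.11, though not with thinned cells (-0.075), and *Surf1* by 0.57 ± 0.15, while *Nubpl*, which places iron-sulfur clusters in complex I, fell by 1.03 (SE 0.18) and *Bcs1l*, which completes complex III, by 0.98 (SE 0.25). Of 12 genes of transport and import across the mitochondrial membranes, *Slc25a5*, an ADP/ATP carrier, rose by 0.23 ± 0.05, and 3 fell, among them the chaperones *Hspd1* (-0.29 ± 0.06) and *Hspa9* (-0.23 ± 0.07). The adjusted p of the genes named here ran from 1.12e-08 (*Suclg2*) to 0.0376 (*Dlst*).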

How the data were processed

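Gene expression was measured in 2 droplet libraries of differentiating fetal liver HSPCs. The authors computed gene-barcode matrices with CellRanger from reads sequenced from the 3' end on an Illumina NextSeq, and the deposited values are raw UMI counts for 28692 genes and 737280 barcodes per library, with no selection of cells. The submitters' processing notes name the build mm9; the CellRanger version and annotation are not given in the sources used here. All 92 member identifiers were found in GENCODE M21, which was used for overlapping genes only.

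Cells with 1500 or more UMIs (1824 barcodes in FL001 and 4113 in FL002) were kept unless they had under 500 genes (3 and 0) or over 10% mt- UMIs (33 and 13). 6 and 13 cells met no gate. Scrublet marked 7 and 1 cells, under 0.5%, and so had not worked; doublets were left in, and leaving out the top 5% of its scores was an alternative. Total UMIs of all barcodes were 16320118 and 22651783. Counts were summed per library and gate into 10 sums, scaled by TMM and fitted with edgeR 4.0.16 (glmQLFit, robust, design of gate and library, 4 residual and a median of 32.3 prior degrees of freedom, R 4.3.3). The library was a block because the gate sums of a library come from 1 capture. Changes in 1 library are differences of log2 CPM with a prior count of 2, and SE is the log2 change divided by the square root of F. The 7 gate genes were left out of counts of calls. DESeq2 1.42.0, other scalings, filters, gates and cells were alternatives. Poisson intervals cover counting error only.

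On simulated counts of 8589 genes for the commitment against the progenitor gate, 19 of 99 genes changed 1.25-fold and 88 of 99 changed 2-fold were called, with 4 false calls of 111. Small changes were thus often missed in the simulation. It changed few genes, drawn from all depths and given 1 common spread, while the members had a median of 12456 UMIs against 1082.5 for all genes tested. The shares recovered are therefore not those of the members.

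The members and all lists were chosen with earlier results of these data known. Named are, per complex and for the assembly factors, the 3 genes with most UMIs; the 8 called members with the largest change each way from progenitor to commitment gate and the 3 in each other comparison; isoform families of complex IV, *Ndufa4* and the c subunit; the *Sdh* genes; the mt- genes; and the 2 called genes with the largest change each way in each further list. Other members are named where a count is spelled out, and some genes are not reported here. No table of protein sequences was used.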

Additional observations from a re-analysis of the deposited data

How the results depend on the processing

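Medians and sums kept their direction in nearly all settings, while counts of calls depended on them. Without the library block the members called were 1 from the progenitor to the early gate, 1 from the early to the Cd3g gate, 2 from the Il2ra to the commitment gate and 23 from the progenitor to the commitment gate (8, 8, 6 and 35 with it). Of all genes 2.73%, 1.68%, 2.05% and 14.1% rose and 1.79%, 1.34%, 1.69% and 11.97% fell without the block. DESeq2 called 4, 4 and 2 in the 3 successive steps with calls, where it called 3.84%, 2.27% and 2.13% of all genes higher and 1.92%, 1.76% and 1.72% lower. With thinned cells the counts were 1, 2 and 14 for the progenitor to early, Il2ra to commitment and progenitor to commitment comparisons, and with cells of 3000 to 8000 UMIs 3 and 3 for the first and second of these. Thinning left 2.30%, 2.21% and 9.17% of all genes higher and 1.86%, 1.68% and 8.65% lower. At 3000 to 8000 UMIs 3.54% and 2.47% of all genes rose and 2.04% and 2.59% fell. Leaving out cells with other-lineage UMIs gave 2 for progenitor to early and 3 for early to Cd3g, where 2.22% and 3.20% of all genes rose and 1.94% and 1.62% fell. Keeping cells with at most 1 mitosis UMI gave 3, 1 and 1 for the 3 steps and 21 for the whole course. There 3.43%, 3.53%, 2.97% and 14.1% of all genes rose and 2.21%, 1.90%, 2.17% and 13.5% fell. Gates as written gave 1 for Il2ra to commitment, where 3.03% of all genes rose and 2.48% fell.

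The median log2 change of members from the progenitor to the early gate was 0.10 with thinned cells. From the Cd3g to the Il2ra gate it was -0.047 with gates as written, -0.049 with thinned cells, -0.0045 with at most 1 mitosis UMI and -0.045 with an mt- limit of 5%, and -0.057 to -0.039 with either library left out. From the Il2ra to the commitment gate it was 0.0063 with a minimum of 1 UMI, 0.055 at 3000 to 8000 UMIs, 0.042 without other-lineage cells, 0.034 with at most 1 mitosis UMI and, in the opposite direction, -0.026 with thinned cells. The commitment to progenitor ratio of the mt- sum, 1.19, was 1.28 with thinned cells, 1.21 at 3000 to 8000 UMIs, 1.14 without other-lineage cells, 1.24 with at most 1 mitosis UMI and 1.11 with an mt- limit of 5%. The log2 changes of *Atp5g3* (-0.0027), *Coq7* (0.026) and *Cox17* (-0.075) reversed with thinned cells, and that of *mt-Nd1* (-0.0063) without other-lineage cells. Why these moved was not tested.

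Of the 35 members called over the whole course, 32 kept their direction in every alternative that tested them. Leaving out a library leaves no residual degrees of freedom, so counts of calls could not be recomputed and only changes per library are given. Leaving out cells with 3 or more UMIs of *S100a8*, *S100a9*, *Pf4* or globin genes was chosen after seeing the data and moved no count of called members by over 1.5 times. The filter of 200 UMIs left 6 members untested.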

Other observations

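The ribosome of mitochondria translates the mt- transcripts, and its proteins come from nuclear genes. It was approached through 77 genes with symbols beginning with *Mrpl* or *Mrps*, 76 of which were tested. They were taken by symbol only, and whether each product, that of *Mrps36* included, is part of this ribosome was not checked. From the progenitor to the commitment gate 14 rose and 14 fell, or 18.4% each, close to the 20.5% and 18.6% of all genes, and the median log2 change was -0.001. The summed level, which was not tested, was 4.84% higher in FL001 and 5.42% lower in FL002. *Mrps36* (0.55 ± 0.08, adjusted p = 1.39e-06 by edgeR) and *Mrps18c* (0.48 ± 0.08, adjusted p = 1.46e-05) rose most, and *Mrpl52* (-0.56 ± 0.12, adjusted p = 0.000266) and *Mrps27* (-0.54 ± 0.19, adjusted p = 0.0203) fell most; these were chosen after their values were seen.

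None of 12 tested regulators of mitochondrial biogenesis, such as *Tfam* and *Nrf1*, was called in that comparison by edgeR or by DESeq2. By edgeR 0 of them had an unadjusted p of at most 0.05, where 3987 of all 8640 genes did. Their log2 changes ran from -0.40 to 0.16 with a median of -0.11. Their summed level was 9.86% lower in FL001 and 3.0% higher in FL002.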
